A study of Mus musculus with 32 samples.

Results

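Pvt1 and Myc lie side by side on mouse chromosome 15. The contacts of their RNAs with chromatin were followed here in RADICL-seq libraries, in which an RNA tag and a nearby DNA tag are joined through a bridge adapter inside crosslinked nuclei. An interaction was taken as one of Pvt1 or Myc by the Ensembl identifier of its RNA tag, which gave 2 of 17784 RNA genes. Of 25231081 listed interactions, 132834 were of Pvt1 RNA and 434 of Myc RNA. DNA tags inside the Myc or the Pvt1 gene were followed as well. In the GENCODE annotation of the mm10 build, Myc spans chr15:61985391-61990374 and Pvt1 spans chr15:62037986-62378096, both on the plus strand, so that Pvt1 begins downstream of Myc. The RefSeq model of Pvt1 ends earlier, at position 62260215.

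The cells were the mouse embryonic stem cell line R08 (mESC) and Oli-neu, a line of oligodendrocyte progenitor cells (mOPC) that carries the t-neu oncogene. Each cell type was thus represented by 1 line. The 15 libraries fell into 6 groups, and each library counted as 1 replicate. Replicates of a group were cell batches that differed in passage number. Untreated cells of both lines were fixed with 1% formaldehyde (mESC 1FA and mOPC 1FA, 3 libraries each), and untreated mESC also with 2% (mESC 2FA, 3 libraries). The cells of mESC ActD4 (2 libraries) were exposed to the transcription blocker actinomycin D at 5 µg/ml for 4 hours and then fixed with 1% formaldehyde. In mESC NPM and mOPC NPM (2 libraries each, 1% formaldehyde) protein digestion and reversal of the crosslinks preceded the joining of RNA to the adapter, which leaves contacts not mediated by protein. R08 is a male line, and no group carried a targeted change of Pvt1 or Myc.

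Myc encodes a transcription factor that pairs with MAX to activate genes of growth, ribosome production and the cell cycle. MXD proteins, MNT and MGA compete with it for MAX. Pvt1 is a long noncoding RNA with many exons and long introns. It shares its chromosomal domain, and in many cancers its amplification, with Myc, and its promoter and introns hold enhancers and boundary elements of the Myc domain.

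Libraries held 251802 to 2832717 interactions. The files list only those combinations of transcript and 25-kb DNA bin that were called significant on pooled replicates, so that the total is not the sequencing depth and a pair listed at 0 may still have been captured. Replicates share 1 list of pairs, so p-values reflect the spread of counts within that list. Fewer cells making an RNA and less RNA per cell cannot be told apart in such libraries. Levels are given in CPM, the interactions of a transcript relative to all listed interactions of its library. Each line carried its own markers. Over 8 genes of stem cells the summed level was 2256 to 2794 CPM in mESC 1FA and 1.81 to 3.00 in mOPC 1FA, where Pou5f1 and Nanog were at 0 and only 2 of the 8 were listed. Over 8 genes of oligodendrocyte progenitors it was 8100 to 8954 in mOPC 1FA and 6.75 to 33.2 in mESC 1FA, where Olig1 and Olig2 were at 0. Lhfpl3 alone averaged 6197 CPM in mOPC 1FA, where Olig1 had 3, 3 and 2 interactions. Pdgfra, 1 of the 8, went the other way, with 8, 56 and 69 interactions in mESC 1FA and 3, 8 and 4 in mOPC 1FA. The next sums are again in CPM. Over 10 markers of astrocytes, neurons, myelinating oligodendrocytes, fibroblasts and primitive endoderm the summed level was 33.7 to 89.7 in mESC 1FA and 70.2 to 94.0 in mOPC 1FA, where 1 of the 10 was listed. In the NPM libraries the markers of other cells stood higher: those of stem cells at 44.8 to 47.04 in mOPC NPM (4 of 8 listed), those of oligodendrocyte progenitors at 73.9 to 94.3 in mESC NPM (3 of 8), and the 10 of further cell types at 272 to 289 in mOPC NPM (5 of 10) and 107 to 196 in mESC NPM (4 of 10). After actinomycin D these lists stood at 3.97 to 21.5 (progenitors, 1 of 8) and 90.7 to 99.3 (further types, 2 of 10). The markers of the own line stood at 1700 to 1783 in mESC ActD4, 1654 to 1726 in mESC NPM and 9898 to 10470 in mOPC NPM. The part of these shifts in the NPM and ActD4 results was not tested.

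Sequences of a pair of windows of 300 bases were chosen by tag density in mOPC 1FA. The RNA window was the densest among all Pvt1 RNA tags of that group. The DNA window was the densest only among DNA tags 1 to 2 Mb past the end of Pvt1, and not over the whole chromosome. Both were read from the plus strand of GRCm38, the same build as mm10, and both were chosen for their counts in mOPC 1FA, so those counts are a description. The window on the RNA side lay at chr15:62148875-62149174, in an intron of Pvt1, 111 kb from its start and 65 bases before an exon. The window on the DNA side lay at chr15:63671253-63671552, outside any annotated gene, 1.29 Mb past the end of Pvt1. Capitals mark in each the 30 bases with the most tag centres in mOPC 1FA.
Pvt1 intron, RNA tags: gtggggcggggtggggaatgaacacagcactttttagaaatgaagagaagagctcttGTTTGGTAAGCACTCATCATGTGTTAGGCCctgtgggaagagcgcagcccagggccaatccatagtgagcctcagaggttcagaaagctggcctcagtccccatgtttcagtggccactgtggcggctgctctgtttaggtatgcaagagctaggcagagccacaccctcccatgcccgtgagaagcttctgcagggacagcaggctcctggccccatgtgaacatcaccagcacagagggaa
Downstream of Pvt1, DNA tags: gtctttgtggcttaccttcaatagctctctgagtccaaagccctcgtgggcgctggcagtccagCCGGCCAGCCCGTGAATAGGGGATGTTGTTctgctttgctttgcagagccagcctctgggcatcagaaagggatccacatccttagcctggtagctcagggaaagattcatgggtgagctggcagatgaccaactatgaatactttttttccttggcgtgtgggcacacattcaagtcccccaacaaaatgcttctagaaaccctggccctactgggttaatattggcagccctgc

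The intronic window gave 230, 274 and 200 Pvt1 RNA tags in mOPC 1FA, and 610 of these 704 tags centred on the capital letters. For mESC 1FA it gave 51, 85 and 97 tags, for mESC 2FA 72, 81 and 100, and for mESC ActD4 7 and 6. These were 1.32% of all Pvt1 tags in mOPC 1FA, 0.707% in mESC 1FA, 0.830% in mESC 2FA and 0.542% in mESC ActD4. The NPM libraries nearly lacked it, with 0 and 1 tags in mESC and 2 and 3 in mOPC, or 0.0419% and 0.0441% of their Pvt1 tags. Of the contacts of tags from this window 53.6% lay beyond 1 Mb in mESC 1FA, beside 53.4% of the remaining Pvt1 contacts. In mOPC 1FA it was 56.3% beside 51.9%. Neither difference was tested. The DNA window was contacted by Pvt1 RNA 9, 5 and 15 times in mOPC 1FA and 1, 0 and 0 times in mESC 1FA. The mOPC 1FA contacts were 0.0544% of all Pvt1 interactions of that group, and 6 of them centred on the capital letters.

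The first question was whether the amount of Pvt1 RNA on chromatin differed between cell types and treatments. Pvt1 RNA stood at 3476, 4250 and 4698 CPM in the mESC 1FA libraries and 7596, 8736 and 9035 in the mOPC 1FA libraries. All mOPC libraries lay above all mESC libraries. Levels were compared by limma on log2 CPM scaled by TMM (a trimmed mean of the ratios between libraries), adjusted over all transcripts tested. Pvt1 was higher in mOPC 1FA by a log2 difference of 1.47 (SE 0.20, adjusted p = 0.000203). Of all transcripts tested 78.0% were called in one direction or the other, so that a call for Pvt1 was no exception. Without TMM, scaling by the total alone, the difference was 1.04.

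Formaldehyde concentration left no detectable difference in the amount. Pvt1 stood at 4111, 4581 and 4741 CPM in mESC 2FA, a range that overlaps that of mESC 1FA, and the log2 difference was 0.06 (SE 0.11, adjusted p = 0.872, with 0.0301% of transcripts called). With replicate numbers as a block, which paired these libraries, the adjusted p was 0.727 and 521 of 9962 transcripts were called in place of 3. After actinomycin D, Pvt1 stood at 3642 and 3467 CPM, within or just below the range of mESC 1FA. It fell by 0.42 on the log2 TMM scale (SE 0.13, adjusted p = 0.0224), a comparison in which 61.3% of transcripts were called. The call was lost with scaling by the total (fall by 0.21, adjusted p = 0.183) and without any of 4 of the 5 libraries (mESC 1FA replicates 2 and 3 and either ActD4 library; highest adjusted p = 0.0951).

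In the NPM libraries Pvt1 was a smaller part of the total in both cell types. Its level was 1947 and 2534 CPM in mESC NPM and 4539 and 4681 CPM in mOPC NPM. In each cell type the NPM libraries lay below all 1FA libraries. The fall from 1FA to NPM was by 1.59 on the log2 scale in mESC (SE 0.28, adjusted p = 0.000992, with 50.7% of transcripts called) and by 1.70 in mOPC (SE 0.27, adjusted p = 0.00166, with 55.5% called). With scaling by the total the fall was by 0.89 in mESC (adjusted p = 0.00405) and by 0.87 in mOPC (adjusted p = 0.00493). In mOPC the call was lost without either NPM library (adjusted p = 0.308 without replicate 1 and 0.347 without replicate 2). With replicate numbers as a block the mESC value was -1.44 (adjusted p = 0.0510). The difference between the cell types in the NPM effect was -0.26 (adjusted p = 0.530, with 32.7% called), too uncertain to show one. mOPC NPM lay above mESC NPM by a log2 difference of 1.49 (SE 0.24, adjusted p = 0.00598, with 51.2% called), but none of the 4 fits without a library kept that call (adjusted p from 0.0743 to 0.618). The mESC comparisons share the mESC 1FA libraries, and both the cell type and the NPM comparison in mOPC rest on mOPC 1FA.

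**Figure D1:**
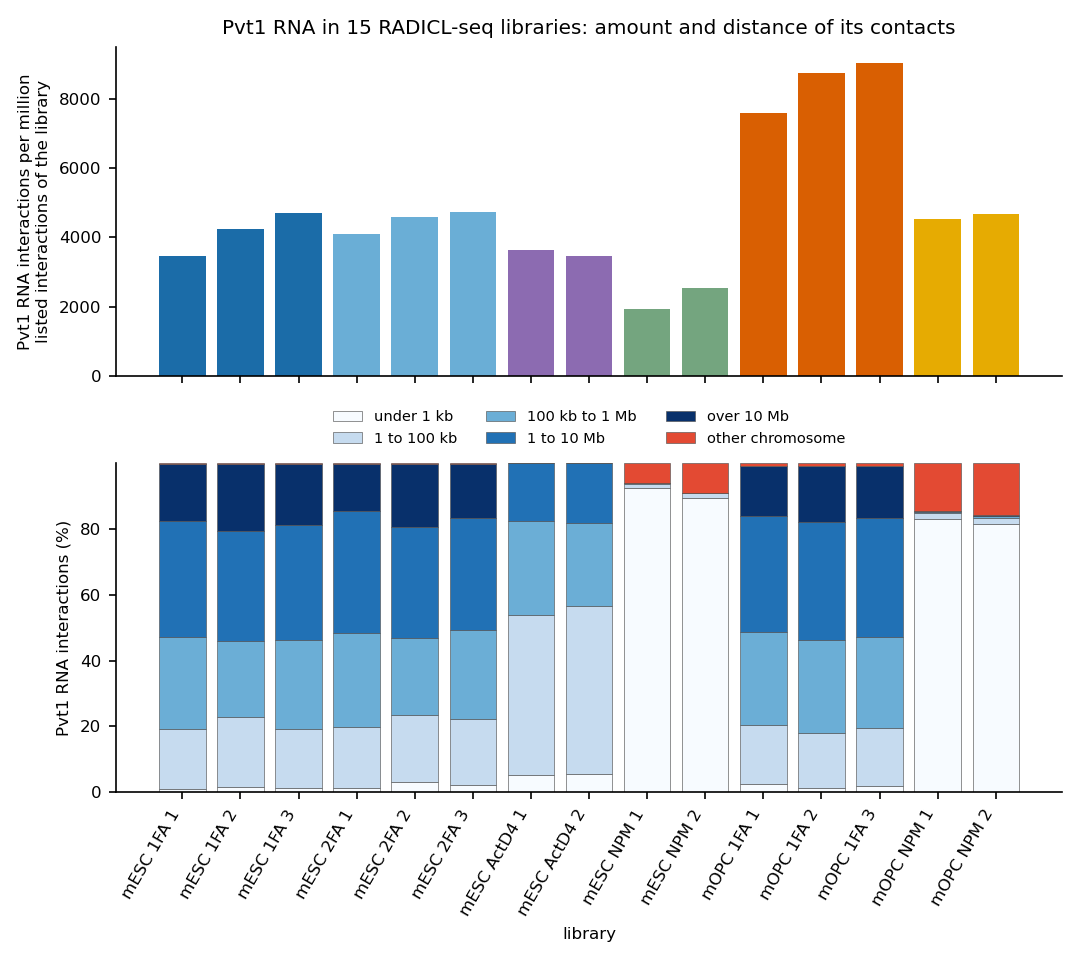
Pvt1 RNA in each of the 15 libraries: the upper bars give its level (CPM, interactions scaled to the listed total of the library), and the lower bars split its interactions (%) by the distance between RNA tag and DNA tag. The 3 mOPC 1FA libraries are highest at 7596 to 9035 CPM, the mESC 1FA, mESC 2FA and mOPC 1FA libraries have 50.6% or more of their contacts beyond 1 Mb, and the NPM libraries have 81.4% to 92.4% under 1 kb.

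The next question was how far along chromosome 15 Pvt1 RNA reached. In the 1FA and 2FA groups more contacts lay beyond 1 Mb on the chromosome than within it. The share beyond 1 Mb was 52.6%, 53.8% and 53.6% in mESC 1FA, 51.5%, 53.0% and 50.6% in mESC 2FA and 50.6%, 53.1% and 51.9% in mOPC 1FA. Among transcripts that averaged 100 or more interactions a library, Pvt1 ranked 3 of 4266 by this share in mESC 1FA, where the median transcript had 0.590%, and 22 of 3114 in mOPC 1FA, where the median was 1.79%. On chromosome 15 it had the highest share of 179 such transcripts in mESC 1FA and of 158 in mOPC 1FA. The median distance of its contacts on the chromosome was 1203, 1454 and 1291 kb in mESC 1FA and 1043, 1163 and 1107 kb in mOPC 1FA.

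Reach was compared by limma on the log2 odds of a contact beyond 1 Mb, over transcripts with enough contacts on each side of that distance. The mOPC 1FA and mESC 1FA ranges overlapped, and the difference was -0.08 (SE 0.05, adjusted p = 0.179), in a comparison in which 77.0% of transcripts were called and the median over all of them was -0.23, a sign that turned without contacts on the own gene (0.10) and with thinned libraries (0.47). The boundary mattered. At 100 kb the difference was 0.05 (adjusted p = 0.669) and at 10 Mb it was -0.27 (adjusted p = 0.0199). Without contacts on the own gene it was -0.20 and was called (adjusted p = 0.0377). Contacts beyond 10 Mb were 17.6%, 20.2% and 18.8% of the total in mESC 1FA and 15.4%, 17.03% and 15.8% in mOPC 1FA. For mESC 2FA against mESC 1FA the difference in reach was -0.09 (SE 0.06, adjusted p = 0.199, with 49.5% of transcripts called and a median of -0.55).

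After actinomycin D far contacts were a smaller part of those listed. In mESC ActD4 17.7% and 18.2% of Pvt1 contacts lay beyond 1 Mb, below all mESC 1FA libraries, and no listed contact lay beyond 10 Mb. The lists hold 2398 Pvt1 interactions of mESC ActD4 and 32960 of mESC 1FA, and pairs were called at unequal depth. The part of depth in the loss was not tested. The farthest were 3.16 Mb upstream and 2.02 Mb downstream, against 57.04 Mb and 41.2 Mb in mESC 1FA. The median distance was 86.9 and 75.8 kb. The log2 odds fell by 2.38 (SE 0.12, adjusted p = 3.47e-76), and by 1.33 without contacts on the own gene (adjusted p = 4.71e-06). Much of the spread behind these p-values comes from all transcripts, by way of limma, and not from Pvt1 alone. With 1 library left out the change stayed between -2.41 and -2.36. In this comparison 99.7% of transcripts were called in one direction or the other. The median transcript had a share of 0% after actinomycin D, so its fitted change depends on the pseudocount and is not set against that of Pvt1. Pvt1 still ranked 7 of 663 transcripts by its share beyond 1 Mb after actinomycin D.

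The NPM libraries kept almost no far contacts of Pvt1. None of the 846 and 1543 Pvt1 interactions of mESC NPM lay beyond 1 Mb, while in mOPC NPM 0.294% and 0.467% of 5777 and 5572 did. The median distance was 0.240 kb in both mESC NPM libraries and 0.241 and 0.282 kb in mOPC NPM. In mOPC the log2 odds fell by 8.14 (SE 0.19, adjusted p = 5.82e-10, with 99.7% of transcripts called). In mESC the fitted change was -11.35 (with 99.2% of transcripts called), which is no bound, since the NPM libraries are listed at 0 and the value depends on the pseudocount of 0.5. The median transcript had a share of 0% in both NPM groups, so no median change is set beside these values. The mESC NPM libraries also hold fewer Pvt1 interactions than those of mOPC NPM. The fitted cell type difference in the NPM effect (3.21, with 69.7% called) and that of mOPC NPM against mESC NPM (3.12, with 79.6% called) rest on the same listing at 0, so they are given as fitted values with no test.

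Contacts of Pvt1 RNA with its own gene changed in the opposite sense. In mESC 1FA they were 23.2%, 25.8% and 23.003% of Pvt1 interactions, with 2% formaldehyde 23.5%, 26.3% and 24.7%, and in mOPC 1FA 23.7%, 21.7% and 23.001%. These 3 groups overlapped. In the log2 odds of an own-gene contact mOPC 1FA differed from mESC 1FA by -0.10 (adjusted p = 0.532, with 58.7% of transcripts called) and mESC 2FA by 0.06 (adjusted p = 0.688, with 0.459% called). The calls over all transcripts in the latter, 18 in number, ranged from 1 to 1258 with 1 library left out (1258 without mESC 2FA replicate 1) and were 341 with replicate numbers as a block, where Pvt1 had an adjusted p of 0.552.

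Own-gene contacts took 62.5% and 63.2% of Pvt1 interactions after actinomycin D, 94.0% and 90.9% in mESC NPM and 85.2% and 83.8% in mOPC NPM. All of these libraries lay above all untreated 1FA libraries of their cell type. The log2 odds rose by 2.42 in mESC ActD4 (adjusted p = 1.22e-14, with 94.7% of transcripts called), by 5.29 in mESC NPM (adjusted p = 2.78e-06, with 99.9% called) and by 4.21 in mOPC NPM (adjusted p = 2.28e-07, with 99.9% called). The medians over all transcripts in both mESC comparisons were 1.31 and 5.36. The NPM rise of Pvt1 was smaller in mOPC than in mESC by 1.09 (difference -1.09, SE 0.29, adjusted p = 0.00539, with 85.5% called). mOPC NPM lay below mESC NPM by a log2 odds difference of -1.18 (adjusted p = 0.0281, with 87.3% called), a call lost without mOPC NPM replicate 2 (adjusted p = 0.0621) and when libraries were weighted by counting error (-1.15).

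Along the chromosome Pvt1 RNA touched 899, 909 and 918 of 4162 bins of 25 kb in mESC 1FA, 815, 830 and 831 in mESC 2FA and 825, 829 and 827 in mOPC 1FA. It touched 75 bins in each mESC ActD4 library, 11 in each mESC NPM library and 18 in each mOPC NPM library. Pooled over replicates it covered 22.1% of the bins in mESC 1FA and 19.9% in mOPC 1FA, more than any other well captured RNA of the chromosome. The next were Ext1 with 654 bins in mESC 1FA and Cntn1 with 643 in mOPC 1FA. By bins it ranked 9 of 51 RNAs of the chromosome in mESC NPM and 6 of 141 in mOPC NPM.

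The number of bins grows with the number of interactions, so libraries were also thinned to equal numbers of Pvt1 interactions. At 9275 interactions mOPC 1FA covered 796 ± 4.65 bins and mESC 1FA 904 ± 4.73 (SD, n = 3 each). The groups did not overlap, and the exact permutation test, two-sided, gave p = 0.1, the smallest that 3 against 3 libraries allow. At 873 interactions mESC ActD4 covered 74.6 bins and mESC 1FA 393, but the pairs had been called before this thinning and from fewer interactions in mESC ActD4, so that the effect of depth on which pairs are listed is not removed. The same bins recurred in part. mESC 1FA and mOPC 1FA shared 509 bins, 55.4% of those in mESC 1FA and 61.4% of those in mOPC 1FA, while all 75 bins of mESC ActD4 and all 11 of mESC NPM were among those of mESC 1FA.

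More of the reach of Pvt1 RNA lay downstream of the gene in mOPC. Of its contacts on the chromosome outside the Pvt1 gene, 52.8%, 52.3% and 52.5% lay downstream in mESC 1FA and 70.4%, 70.6% and 71.0% in mOPC 1FA. All mOPC libraries lay above all mESC libraries. With 2% formaldehyde the share was 52.9%, 51.2% and 51.3%, and after actinomycin D 42.8% and 35.5%.

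Contacts outside the gene were then compared in windows of 1 Mb, a test added after the data were seen. It used limma on the log2 share of these contacts in each window, with adjustment over the windows. Between mOPC 1FA and mESC 1FA 54 of 65 windows were called (83.1%). Of the 36 downstream windows 15 were higher and 16 lower in mOPC, and of the 29 upstream windows 22 were lower and 1 higher. Some of these reached the minimum mean of 10 contacts only through the group where they were high, and 12 had 0 contacts in the other. Among the 39 windows with that minimum in both groups 29 were called, with 11 higher and 8 lower downstream and 10 lower and 0 higher upstream. In 12 of them the share differed by more than 4-fold. Between mESC 2FA and mESC 1FA 10 of 60 windows were called (16.7%), 9 of them lower in mESC 2FA and 2 at 0 contacts in 1 group, and of the 51 with the minimum in both groups 4 were called, all lower. With replicate numbers as a block 16 of 60 were called, 14 of them lower.

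The highest share in mOPC 1FA was 1 to 2 Mb downstream of the start of Pvt1, with 22.8% ± 1.07 of contacts against 10.4% ± 1.37 in mESC 1FA (SD, n = 3 each). The log2 difference in share was 1.14 (SE 0.10, adjusted p = 1.59e-07, limma). The window 0 to 1 Mb downstream held 15.6% in mOPC 1FA and 12.9% in mESC 1FA. It contains the 340 kb of the Pvt1 gene, which were left out, so its share is not on a par with those of full windows. A second rise in mOPC lay far from the gene. The window 34 to 35 Mb downstream held 4.98% ± 0.46 in mOPC 1FA, against 0.597% ± 0.067 in mESC 1FA (log2 difference in share 3.05, adjusted p = 1.05e-10). Other windows were nearly vacated in mOPC: 11 to 12 Mb downstream held 0.244% against 2.77% (difference -3.49), and 6 to 7 Mb upstream held 0.302% against 2.14% (difference -2.82). Malat1, a nuclear noncoding RNA from chromosome 19 that touches chromatin broadly, had 3.63% of its chromosome 15 contacts 1 to 2 Mb downstream in mOPC 1FA and 0% in mESC 1FA, and 4.25% and 3.15% in the window 34 to 35 Mb downstream. Its part in the Pvt1 differences was not tested.

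**Figure D2:**
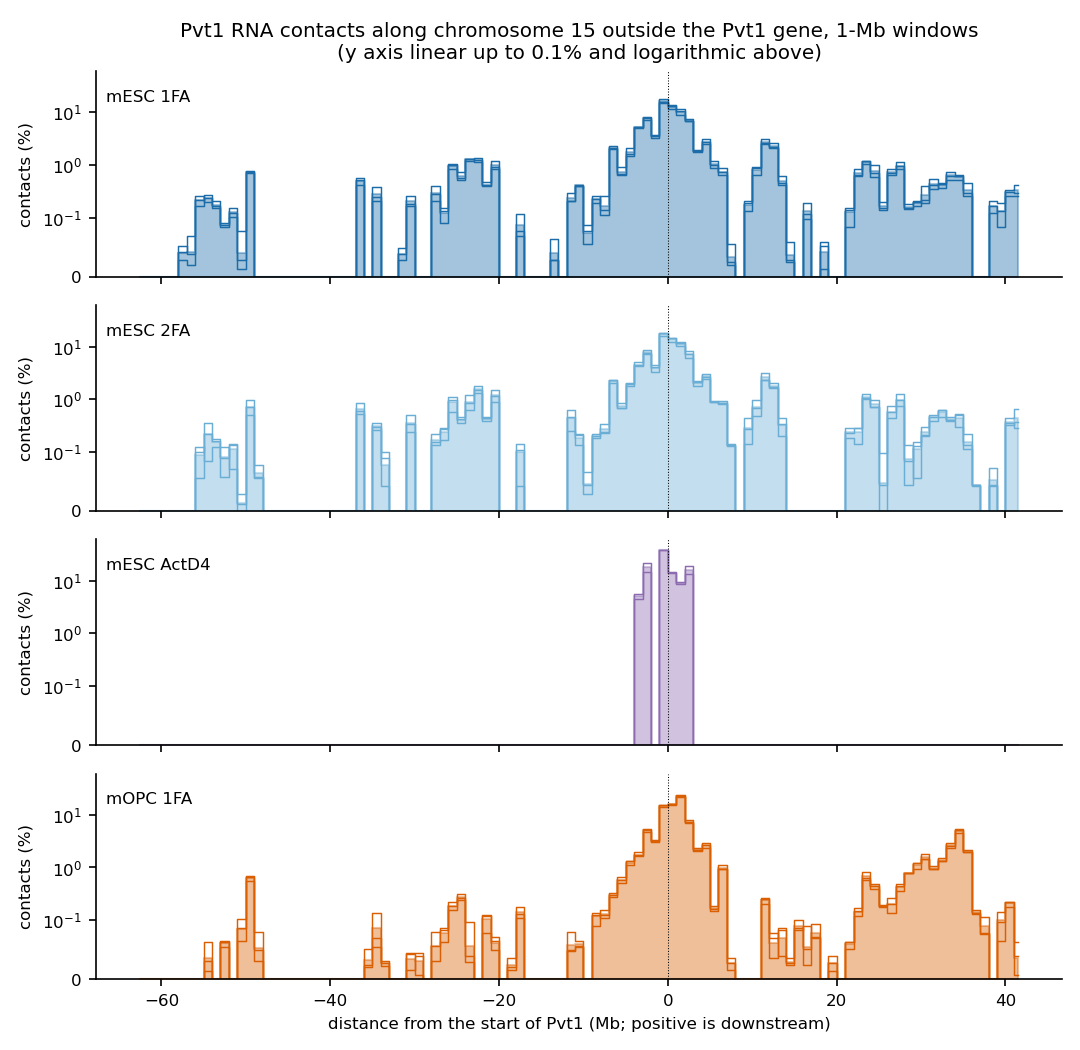
Share (%) of Pvt1 RNA contacts on chromosome 15 outside the Pvt1 gene in windows of 1 Mb, against distance from the start of Pvt1 (Mb, positive downstream), for 4 groups; lines are libraries, filled areas group means, and the y axis is linear up to 0.1% and logarithmic above. In mOPC 1FA the window 1 to 2 Mb downstream is highest (22.8%) and the window 34 to 35 Mb downstream reaches 4.98%. The window 0 to 1 Mb lacks the 340 kb of the Pvt1 gene. After actinomycin D no listed contact is farther than 3.16 Mb.

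The rise just downstream was densest at chr15:63400001-63800000, a stretch of 0.4 Mb chosen after its values were seen. Pvt1 RNA contacted it 1431, 1602 and 1818 times in mOPC 1FA, 369, 300 and 461 times in mESC 1FA and 412, 310 and 423 times in mESC 2FA. After actinomycin D it did so 14 and 13 times, and none of the NPM libraries listed a contact. Other RNAs of chromosome 15 were also more often found there in mOPC 1FA. Asap1 RNA contacted the stretch 180, 209 and 237 times in mOPC 1FA and 20, 16 and 19 in mESC 1FA, and Fam49b RNA 112, 133 and 181 against 44, 25 and 45. Cntn1 RNA did so 53, 51 and 73 times in mOPC 1FA and was listed at 0 in mESC 1FA. These RNAs were also captured more in mOPC 1FA as a whole. For Asap1 and Fam49b the shares at the stretch differed less than the counts, while Cntn1 had no listed interaction in mESC 1FA and so no share there. The stretch took 2.18%, 1.88% and 1.76% of Asap1 interactions in mESC 1FA and 2.71%, 3.002% and 3.57% in mOPC 1FA, and 4.63%, 2.92% and 4.29% of those of Fam49b against 5.13%, 6.08% and 7.73%. Of Pvt1 interactions it took 3.98%, 2.89% and 3.46% in mESC 1FA and 8.52%, 8.70% and 10.1% in mOPC 1FA. Pvt1 gave 4851 of the 6733 contacts made there by RNAs of the chromosome in mOPC 1FA and 1130 of 1370 in mESC 1FA.

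RNA from other chromosomes was listed around the locus in mOPC as well. Of all Malat1 contacts on chromosome 15, 11.8%, 12.5% and 13.01% for mOPC 1FA and 23.7% and 23.2% for mOPC NPM fell at chr15:61250001-64750000, a stretch of 3.5 Mb or 3.36% of the chromosome, also chosen after its values were seen. In mESC 1FA the share was 0.295%, 0.204% and 0.331%, in mESC ActD4 4.38% and 2.94%, and in mESC 2FA and mESC NPM it was 0. On Pvt1 DNA itself Malat1 RNA was listed 442, 421 and 374 times in mOPC 1FA and 266 and 409 times in mOPC NPM, against 11 and 4 times in mESC ActD4 and 0 in the remaining mESC groups. Its part in the Pvt1 and Myc values of mOPC was not tested.

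Pvt1 RNA touched 323 genes of chromosome 15 other than Myc and Pvt1 in mESC 1FA, 286 in mOPC 1FA and 275 in mESC 2FA. After actinomycin D it touched 15, and in the NPM libraries 11 in mOPC and 3 in mESC. The leading 3 by number of contacts had the same names in the 1FA and 2FA groups. Asap1, a regulator of ARF GTPases, was contacted 234, 292 and 342 times in mESC 1FA and 481, 536 and 508 times in mOPC 1FA. Fam49b, which encodes a protein that binds RAC1, had 161, 177 and 226 contacts in mESC 1FA and 297, 337 and 265 in mOPC 1FA. Nsmce2, a SUMO ligase of the SMC5-SMC6 complex, had 128, 149 and 191 in mESC 1FA and 186, 159 and 211 in mOPC 1FA. The counts of Asap1 and Fam49b did not overlap between the cell types, while those of Nsmce2 did, but mOPC 1FA had more Pvt1 interactions in all. As a share of Pvt1 interactions Asap1 stood at 2.52%, 2.81% and 2.57% in mESC 1FA and 2.86%, 2.91% and 2.81% in mOPC 1FA, and Fam49b at 1.74%, 1.71% and 1.698% against 1.77%, 1.83% and 1.47%. Both overlapped, while the shares of Nsmce2 did not, with 1.38%, 1.44% and 1.44% in mESC 1FA and 1.11%, 0.863% and 1.17% in mOPC 1FA. Per 100 kb of gene and summed over libraries, Fam49b led Asap1 and Nsmce2, with 429, 293 and 206 contacts in mESC 1FA and 684, 515 and 244 for mOPC 1FA.

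The next genes differed. Mtss1 and Gm15943 followed in mESC 1FA, with 64, 81 and 96 and with 50, 65 and 67 contacts, and stood at 74, 81 and 55 and at 28, 14 and 12 in mOPC 1FA. Tmem117 and Adcy8 followed in mOPC 1FA. Tmem117 had 106, 124 and 120 contacts there and 8, 5 and 11 in mESC 1FA, and Adcy8, an adenylyl cyclase of neural tissue, had 96, 138 and 111 against 42, 44 and 59. After actinomycin D Asap1 (72 and 33 contacts), Fam49b (55 and 19), Mtss1, Nsmce2 (21 and 19) and Washc5 (9 and 11) led. In the NPM libraries the genes at the top were annotated inside Pvt1 (Gm27913, Gm27782, H2afy3 and, in mOPC, Gm27957), apart from Cntn1 and Fam49b in mOPC NPM, the latter with 4 and 7 contacts.

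Beyond 5 Mb from the locus the leading genes of the cell types had no name in common. In mESC 1FA they were Ptk2, which encodes focal adhesion kinase, Sntb1, Trappc9, Oxr1 and Rims2. Ptk2 had 46, 48 and 69 contacts in mESC 1FA and 8, 11 and 5 in mOPC 1FA, and Sntb1, Trappc9 and Rims2 were listed at 0 in mOPC 1FA, with 36, 46 and 74, 46, 55 and 54, and 34, 48 and 66 contacts in mESC 1FA. In mOPC 1FA they were Tmem117, Nell2, Ano6, Cntn1 and Arid2. Cntn1, a contactin of neural cell surfaces, had 72, 88 and 115 contacts in mOPC 1FA and 6, 2 and 13 in mESC 1FA, and Nell2 had 96, 126 and 100 in mOPC 1FA and 0 in mESC 1FA. The leading mOPC genes all lay 29.7 to 33.9 Mb past the end of Pvt1, while those of mESC lay on both sides of it, from 22.4 Mb upstream (Rims2) to 10.8 Mb downstream (Ptk2).

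**Figure D3:**
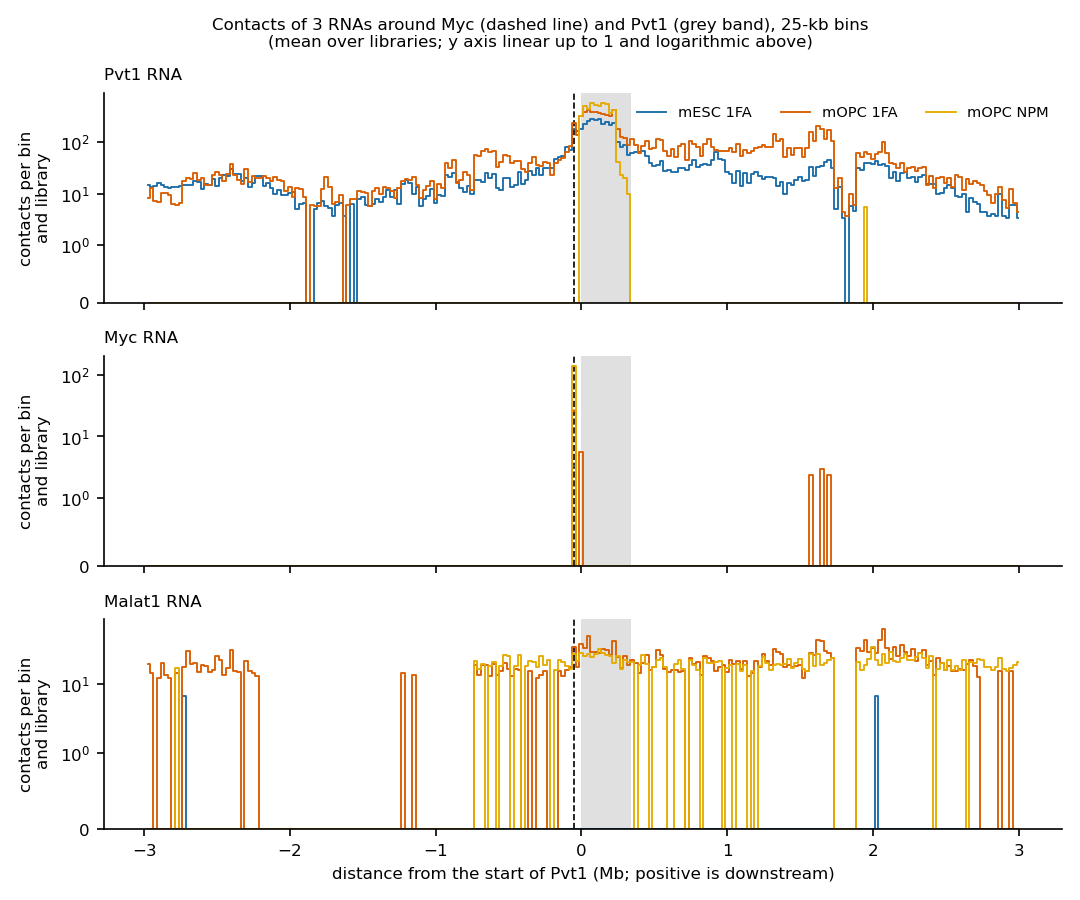
Contacts per 25-kb bin and library (mean over libraries) of Pvt1, Myc and Malat1 RNA within 3 Mb of the start of Pvt1, in mESC 1FA, mOPC 1FA and mOPC NPM; x is distance from the start of Pvt1 (Mb), y is linear up to 1 and logarithmic above, the dashed line marks Myc and the grey band Pvt1. Pvt1 RNA in mOPC 1FA stays high past the gene, in mOPC NPM it stays almost within it, Myc RNA is listed in 5 bins, and Malat1 RNA is listed around the locus in mOPC and almost nowhere in mESC 1FA.

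Myc RNA was scarce among the listed interactions and was chiefly listed at Myc itself. In mESC 1FA it gave 2, 2 and 6 interactions, and mESC 2FA had 4, 5 and 4, mESC ActD4 0 and 0 and mESC NPM 4 and 7. In mOPC 1FA it gave 32, 35 and 51 and in mOPC NPM 176 and 106. Its level was 14.5, 16.6 and 25.5 CPM in mOPC 1FA, and mOPC NPM had 138 and 89.0, against 0.7496, 0.819 and 2.12 in mESC 1FA. All mOPC libraries lay above all mESC libraries of the same treatment.

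Myc passed the filter on low counts only through the mOPC libraries, and was not tested within mESC. Its fitted differences between the cell types are therefore a description, with no test. On the log2 TMM scale mOPC 1FA stood 4.21 above mESC 1FA (SE 0.39) and mOPC NPM 3.78 above mESC NPM (SE 0.33). From mOPC 1FA to mOPC NPM it rose by 1.76 by limma (SE 0.28, adjusted p = 0.00176), where Pvt1 fell by 1.70, and with scaling by the total by 2.58. Without mOPC NPM replicate 1 that rise had an adjusted p of 0.0650.

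The contacts of Myc RNA lay on Myc or close to it, except in mOPC 1FA. In mOPC NPM 174 of 176 and 106 of 106 had their DNA tag in Myc, and in mOPC 1FA 16 of 32, 14 of 35 and 29 of 51. In all other groups with Myc contacts the 25-kb bin that holds Myc (chr15:61975001-62000000) had every one of them. In mOPC 1FA 6, 5 and 6 contacts lay in the bin at the start of Pvt1 (chr15:62025001-62050000), of which 5, 3 and 4 were in Pvt1. A further 7, 8 and 8 lay beyond 1 Mb, the farthest at 1.76, 1.75 and 1.75 Mb. These far contacts fell into 3 bins, which start at positions 63600001, 63675001 and 63725001. They lie inside the 0.4 Mb that Pvt1 RNA contacted most downstream of its gene in mOPC 1FA. No Myc RNA was listed on another chromosome. The RNA tags of Myc were intronic in 68.8%, 68.6% and 52.9% of cases in mOPC 1FA and in 19.3% and 30.2% in mOPC NPM.

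Pvt1 RNA contacted Myc DNA in all 1FA, 2FA and ActD4 libraries and in no NPM library. Counts were 33, 38 and 44 in mESC 1FA, 47, 47 and 57 in mESC 2FA, 15 and 13 in mESC ActD4 and 70, 75 and 94 in mOPC 1FA, and 0 in all 4 NPM libraries. As a share of Pvt1 interactions this was 0.356%, 0.366% and 0.331% in mESC 1FA, 0.510%, 0.504% and 0.478% in mESC 2FA, 0.984% and 1.49% in mESC ActD4 and 0.417%, 0.407% and 0.520% in mOPC 1FA. Contacts of 1 to 100 kb as a class took a mean of 49.8% of Pvt1 interactions in mESC ActD4 and 19.2% in mESC 1FA. The part of this shift in the share on Myc was not tested. On Myc the shares of mESC 2FA, mESC ActD4 and mOPC 1FA all lay above those of mESC 1FA.

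With groups of 2 and 3 libraries each of these 3 comparisons gave p = 0.1 in the two-sided exact permutation test, the smallest possible, and 0.1 after adjustment over 6 comparisons. Pairs were listed on pooled replicates, so the NPM libraries of a cell type stand at 0 together, and no test of them is given. The higher share in mOPC 1FA depended on where Myc was taken to end. Over the 25-kb bin that holds Myc it was 1.28% in mOPC 1FA, below the 1.65% of mESC 1FA, a difference of -0.366 percentage points in place of 0.0973.

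Seen from the DNA, Pvt1 RNA was the chief RNA on Myc in crosslinked cells. All RNAs together gave 40, 42 and 50 contacts with Myc DNA in mESC 1FA. They gave 122, 130 and 160 in mOPC 1FA, and mOPC NPM had 182 and 111. Pvt1 gave 82.5%, 90.5% and 88.0% of them in mESC 1FA and 57.4%, 57.7% and 58.8% in mOPC 1FA. The ranges did not overlap. In mESC ActD4 Pvt1 was the only RNA listed on Myc. Myc RNA took the place of Pvt1 in the NPM libraries, with 95.6% and 95.5% of contacts in mOPC NPM and 100% in mESC NPM, while in mOPC 1FA it gave 13.1%, 10.8% and 18.1%.

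More kinds of RNA were listed on Myc in mOPC 1FA, with 14, 15 and 14 transcripts per library, than in mESC 1FA, with 4 or 5. After Pvt1 and Myc the most contacts in mOPC 1FA came from Malat1 (11, 11 and 7), Asap1 (7, 11 and 5), Nsmce2 (3, 2 and 4) and Rn7sk (1, 3 and 5), followed by Fam49b (2, 2 and 4) and Cntn1 (4, 2 and 2). Malat1, Asap1, Rn7sk and Cntn1 were not listed on Myc in mESC 1FA, while Nsmce2 had 2, 0 and 1 contacts there and Fam49b 1, 2 and 1. On Pvt1 DNA the pattern was alike. Pvt1 RNA gave 91.2%, 95.3% and 95.3% of contacts with its own gene in mESC 1FA and 80.7%, 79.9% and 81.2% in mOPC 1FA, and the number of transcripts listed there was 7 in each mESC 1FA library and 28, 27 and 27 in mOPC 1FA. Lhfpl3 RNA, a marker of oligodendrocyte progenitors made on chromosome 5, was listed on Pvt1 DNA 17, 16 and 19 times in mOPC 1FA and 16 and 18 times in mOPC NPM.

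**Figure D4:**
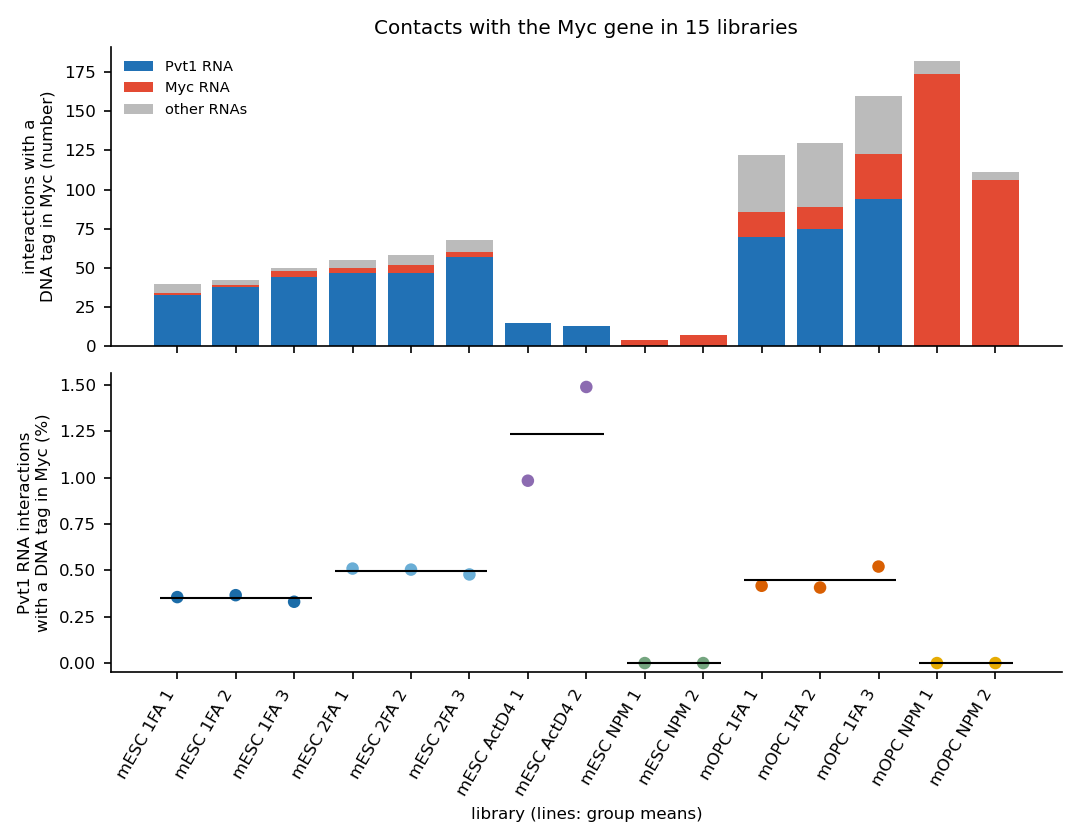
Interactions with a DNA tag in Myc in each of the 15 libraries, as numbers by RNA (upper bars) and as the share (%) of Pvt1 RNA interactions that lay on Myc (lower points, lines are group means). Pvt1 RNA is listed on Myc in the 11 crosslinked libraries and at 0 in the 4 NPM libraries, where Myc RNA gives 95.5% to 100% of the contacts.

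The RNA tags of Pvt1 were almost all from introns. Intronic tags were 97.5%, 98.0% and 98.2% in mESC 1FA and 97.3%, 97.4% and 98.0% in mOPC 1FA. The median tag lay 86.8, 90.6 and 89.4 kb from the start of the gene in mESC 1FA and 107, 104 and 104 kb in mOPC 1FA. The first 60 kb gave 34.3%, 33.1% and 33.9% of tags in mESC 1FA and 27.6%, 28.4% and 29.4% in mOPC 1FA, so that the tags in mOPC 1FA lay farther along the gene in every library. After actinomycin D the first 20 kb gave 21.97% and 20.8% of tags, above the 14.8%, 13.9% and 14.2% of mESC 1FA. These shares were described and not tested.

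Tags past the end of the RefSeq model of Pvt1 were more frequent in mOPC. They were 4.56%, 4.32% and 3.44% of Pvt1 tags in mOPC 1FA, and mOPC NPM had 4.83% and 5.47%. In mESC 1FA they were 0.679%, 0.915% and 0.767%, and mESC NPM had 1.30% and 1.10%. All mOPC libraries lay above all of these mESC libraries, with and without protein digestion.

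**Figure D5:**
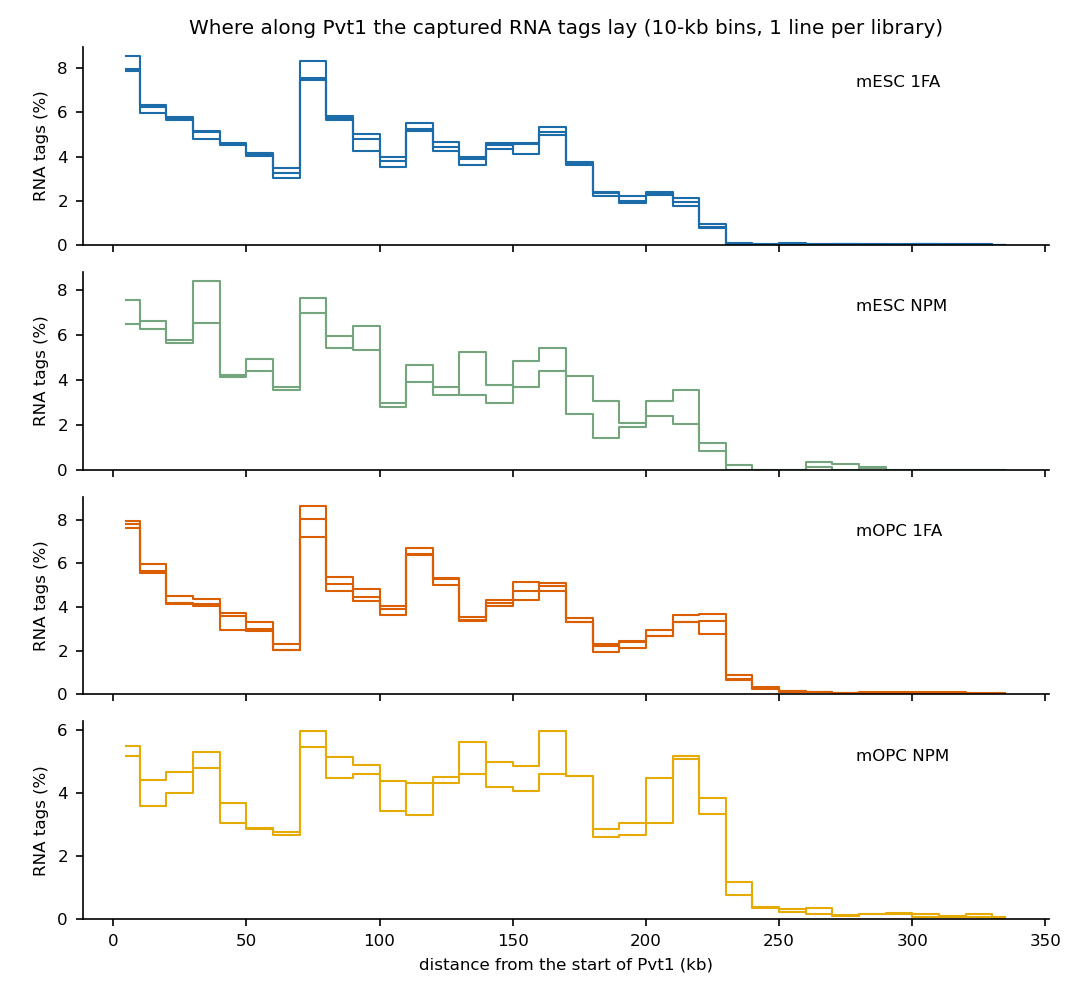
Share (%) of the Pvt1 RNA tags of each library in bins of 10 kb, against distance from the start of Pvt1 (kb), for mESC 1FA, mESC NPM, mOPC 1FA and mOPC NPM, 1 line per library. Tags spread over the part of the gene in the RefSeq model and nearly cease after it, and tags beyond that end are 3.44% to 5.47% in mOPC and 0.679% to 1.30% in mESC.

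Contacts of Pvt1 RNA with other chromosomes were few in the 1FA, 2FA and ActD4 groups and a larger part of the NPM libraries. They were 0.129%, 0.357% and 0.150% of Pvt1 interactions in mESC 1FA, 0 in mESC ActD4 and 0.768%, 0.728% and 0.886% in mOPC 1FA. In mESC NPM they were 6.03% and 9.01%, and in mOPC NPM 14.5% and 15.7%. The mESC contacts fell mainly on chromosomes 17 and 11. Those on chromosome 17 all lay in 1 bin, chr17:39825001-39850000 (8, 23 and 13 in mESC 1FA, 31 and 106 in mESC NPM). Annotated genes overlap there, so that 1 contact can count for more than 1 gene. They were Gm26917 (6, 17 and 10 in mESC 1FA, 10 and 57 in mESC NPM), CT010467.1 (2, 6 and 3, and 21 and 49) and Gm42418 (2, 3 and 2, and 19 and 38). On chromosome 11 the gene was Sfi1 (4, 14 and 7 in mESC 1FA, 3 and 15 in mESC NPM). The chromosome 17 bin and Sfi1 were also listed in mOPC 1FA and mOPC NPM. Whether this DNA is repeated in the genome was not tested.

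In mOPC NPM most of them (79.8%) fell on the first 45 Mb of chromosome 5, which Pvt1 RNA contacted 686 and 681 times there, 56, 51 and 45 times in mOPC 1FA and never in a listed pair in mESC. In mOPC 1FA chromosome 5 held 152 of 423 such contacts (35.9%) and chromosome 2 held 204 (48.2%). On chromosome 5 Lhfpl3 was the gene with the most contacts, 15, 17 and 18 for mOPC 1FA and 49 and 43 for mOPC NPM. Plb1 (43 and 36) and Bre (23 and 30) were listed in mOPC NPM only. Pvt1 was not alone, since Cntn1 RNA, also from chromosome 15, contacted the same part of chromosome 5 10, 14 and 8 times in mOPC 1FA and 204 and 187 times in mOPC NPM. Part of chromosome 2 (chr2:57500001-80000000) was contacted by Pvt1 RNA 44, 54 and 73 times in mOPC 1FA, with Baz2b (11, 7 and 10) and Tanc1 (3, 6 and 7) among the genes, and not in the NPM libraries. Both parts, on chromosomes 5 and 2, were delimited with their values in view. On chromosome 19 Pvt1 RNA contacted Malat1 (36 and 23) and Neat1 (16 and 11) in mOPC NPM alone.

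The genes of the MYC and MAX network differed in both directions between the cell types. Of 14 genes listed, Myc included, 11 were tested between mOPC 1FA and mESC 1FA. There 6 were higher and 4 lower in mOPC, in a comparison in which 78.0% of all transcripts were called. Of these genes 4 passed the filter on low counts through 1 cell type only (Myc and Mxd4 through mOPC, Mycn and Mlxipl through mESC), and among the other 7 there were 4 higher and 2 lower. The median log2 difference was 0.33, beside -0.30 over all transcripts. Mxd4, a MAX partner that opposes MYC, had 958, 919 and 763 interactions in mOPC 1FA and 4, 4 and 6 in mESC 1FA, where it did not reach the minimum count. Mxd1, of the same kind, was higher by 2.22, Mnt by 0.88, Mlxip by 0.59 and Mxi1 by 0.33, beside Myc itself at 4.21. With scaling by the total, the calls for Mnt, Mlxip and Mxi1 were lost and Mxi1 turned to -0.10.

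The lower genes kept their direction under that scaling. Mycn, the relative of Myc used by stem and progenitor cells, had 33, 39 and 42 interactions in mESC 1FA and was listed at 0 in mOPC 1FA, so no fold is given. Mga, which pairs with MAX and represses, had 1131, 844 and 1061 in mESC 1FA and 45, 27 and 37 in mOPC 1FA (log2 difference -4.04, adjusted p = 1.04e-07). Max had 266, 307 and 289 against 52, 48 and 58 (difference -1.68, adjusted p = 7.31e-06), and Mlxipl had 65, 66 and 70 against 0. Zbtb17, which encodes the MYC partner MIZ1, stood at 0.23 (adjusted p = 0.284).

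In the other comparisons fewer of the network were called. By limma none of 9 tested was called between mESC 2FA and mESC 1FA (0.0301% of all transcripts called). With replicate numbers as a block Mnt (-0.59, adjusted p = 0.00581), Zbtb17 (-0.78, adjusted p = 0.0387) and Mga (-0.29, adjusted p = 0.0399) were lower in mESC 2FA. After actinomycin D, where 61.3% of all transcripts were called, Mxd1 (1.88) and Mycn (1.10) were higher and Mlxipl (-1.55) lower of 9 tested. Mlxipl passed the filter through mESC 1FA only, and its adjusted p was 0.0656 under scaling by the total. In mESC NPM, where 50.7% of all transcripts were called, 6 of 9 were lower than in mESC 1FA and none higher. The 6 were Mnt, Mxi1, Max, Mlxip, Mlxipl and Mxd1, which was listed at 0 in mESC NPM. Mxd1 passed the filter through mESC 1FA only, and among the other 8 tested 5 were lower. With scaling by the total, which moved the median of all transcripts in that comparison from -0.18 to 0.51, Mnt, Max, Mlxip and Mlxipl lost their calls, Mlxipl standing at 0.00, and Mga (0.75) and Mycn (1.32) were higher. In mOPC NPM Myc, Mga (1.17) and Mlxipl were higher and Mxd4 (-1.36), Mnt (-1.10) and Mxi1 (-0.99) lower than in mOPC 1FA, of 10 tested, beside 55.5% of all transcripts called. Mlxipl was listed at 0 in mOPC 1FA and passed the filter through mOPC NPM only. Among the other 9 tested 2 were higher and 3 lower. With scaling by the total Mnt and Mxi1 lost their calls and Mlxip (0.94) and Max (1.00) were called higher. Between the NPM groups 5 of 11 were higher in mOPC (Mxd1, Mxd4, Myc, Mlxip and Mnt) and Mga (-2.79) and Mycn (-2.50) lower, beside 51.2% of all transcripts called. Of these Mxd1, Mxd4, Myc and Mycn passed the filter through 1 cell type only. Mnt alone of the 7 lost its call with other scalings.

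Of 83 annotated genes within 3 Mb of the pair, 17 of them protein coding, few had RNA in the listed interactions. Between mOPC 1FA and mESC 1FA 9 were tested, with 7 higher in mOPC and 1 lower, beside 78.0% of all transcripts called. Trib1, Gm27913 and Adcy8 passed the filter through mOPC only, and among the other 6 there were 4 higher and 1 lower. The median log2 difference of those 6 was 1.19, beside -0.30 over all transcripts. Among those 6 the highest differences were those of Asap1 (3.60), Sqle, an enzyme of sterol synthesis (2.89), and Fam49b (2.00). The fitted values of Trib1, a pseudokinase gene, and Gm27913, which lies inside Pvt1, were 4.77 and 2.54 and are a description, and Adcy8 was listed at 0 in mESC 1FA, so no fold is given. Nsmce2 stood at 0.39 and lost its call with scaling by the total, where it was -0.04. Washc5 was lower (-0.51), and Mtss1 was not called (-0.17, adjusted p = 0.385), though with scaling by the total it was lower (-0.60, adjusted p = 0.00454).

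Within mESC none of 6 was called after 2% formaldehyde. After actinomycin D (61.3% of all transcripts called) 4 of 6 were lower (Washc5, Mtss1, Fam49b and Nsmce2) and Sqle was higher by 1.44, and scaling by the total took the calls of Fam49b and Nsmce2. In mESC NPM (50.7% called) 5 of 6 were lower and none higher, of which Washc5 and Fam49b turned to 0.13 each with scaling by the total. In mOPC NPM (55.5% called) 3 of 12 were higher (Adcy8, Fam84b and Gm21798) and 6 lower, of which Fam84b, Gm21798 and the lower Gm27913 passed the filter through 1 group only. The lower genes included Asap1 (-1.86), Nsmce2 (-1.69) and Fam49b (-1.61), and Trib1 (-0.66), which turned to 0.17 with scaling by the total. Between the NPM groups (51.2% called) 8 of 11 were higher in mOPC and none lower. Of the 8, Adcy8, Trib1, Fam84b, 9930014A18Rik and Gm21798 were listed at 0 in mESC NPM, and among the other 6 tested 3 were higher (Sqle, Asap1 and Fam49b). As targets, 33 of the 83 carried a DNA tag contacted by Pvt1 RNA in mESC 1FA and 34 in mOPC 1FA, but 13 after actinomycin D, and with protein digestion 6 in mOPC and 3 in mESC. The 3 in mESC NPM (Gm27913, Gm27782 and H2afy3) are annotated inside Pvt1. The 6 in mOPC NPM include the same genes and Gm27957, also inside Pvt1.

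The transcripts whose level over the 15 libraries was most like that of Pvt1 came from other chromosomes. Of 3425 transcripts, Arid1b, a subunit of the BAF remodelling complex (r = 0.986), Gsk3b, a kinase (r = 0.986), Dip2c (r = 0.983), Cdc42se2 (r = 0.981) and Rapgef2 (r = 0.9799) had the highest Pearson's r of log2 CPM. The libraries share their groups and lists of pairs, so these values are a description.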

How the data were processed

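Per the methods of the authors, RNA and DNA tags were extracted, cleared of ribosomal RNA and of PCR duplicates, aligned to mm10 with BWA 0.7.15-r1140 and assigned to GENCODE genes (RNA by strand) and to 25-kb bins. The deposited files hold tag positions and, for each pair of transcript and bin, a binomial p-value and its adjusted p-value, computed by the authors on pooled replicates and listed under 0.05. An RNA entry, a DNA entry and a repeat run of 1 library were counted as 1 library, and exact copies of an interaction once. GENCODE M21 gave names to 17501 of 17784 identifiers.

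Interactions were counted per transcript and library and fitted with limma 3.58.1 in R 4.3.3 (two-sided, Benjamini-Hochberg over all transcripts tested), with a prior count of 0.5, a count of at least 10 in as many libraries as the smaller group and a total of at least 15. Reach and own-gene contacts were fitted on log2 odds with 0.5 added, for transcripts with at least 100 interactions per library. A mean of at least 5 on each side was then required, since the fit without it called too many unchanged transcripts on simulated data. On simulated data with log2 changes of 2 among 2570 to 7594 transcripts, the capture fits of the 6 comparisons recovered 97.5% to 100% of the changes, with 2.99% to 9.13% of calls false. For mOPC NPM against mESC NPM the reach fit, on 42 transcripts, recovered 0%, and the own-gene fit, on 653, recovered 53.3%. Over the 6 comparisons false calls went up to 9.27% in the reach fits and 6.98% in the own-gene fits, both for mESC NPM against mESC 1FA.

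Replicate numbers were checked for pairing by the correlation of deviations from the group means. It was 0.336, 0.166 and 0.310 between mESC 2FA and mESC 1FA, so the numbers paired those samples, and 0.030, 0.021 and 0.036 between mOPC 1FA and mESC 1FA, where they did not. Named genes were the members, called genes of the network and neighbour lists, the 5 leading targets on chromosome 15 per group, near and beyond 5 Mb, the 5 transcripts most like Pvt1 and genes contacted on other chromosomes in at least 2 libraries. The members and lists were chosen with earlier results of these data known. Protein and promoter sequences were not used here, and no column of another series was found (0). Alternatives are given in the closing section.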

Additional observations from a re-analysis of the deposited data

Results flagged for a closer look

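For contacts of Pvt1 RNA with its own gene, the fitted effect of protein digestion differed between the cell types by a test of the difference itself. The rise in log2 odds was smaller in mOPC, with a difference of -1.09 (SE 0.29, adjusted p = 0.00539, limma). In this test 85.5% of transcripts were called. The lists hold 2389 Pvt1 interactions of mESC NPM and 11349 of mOPC NPM, and nearly all of those off the own gene lay on other chromosomes. The part of depth in the difference was not tested. For reach, the fitted difference between the changes in log2 odds of a contact beyond 1 Mb was 3.21, where 69.7% of transcripts were called. Both mESC NPM libraries had 0 such contacts among 846 and 1543 Pvt1 interactions, so this value and its test depend on the pseudocount and on depth, and no direction is read from it.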

How the results depend on the processing

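Of 287 values of the comparisons under alternative settings, 266 kept their direction and their side of the threshold (counts within 1.5 times) and 21 did not, and of 261 with 1 library left out 241 did and 20 did not. The cause of the changes below was not tested. For the reach of Pvt1 in mOPC 1FA against mESC 1FA a boundary of 100 kb gave 0.0530, one of 10 Mb -0.27 and leaving out the own gene -0.20. Scaling by the total gave -0.21 for the amount of Pvt1 after actinomycin D. Weighting by counting error, added after the data were seen, gave 3.24 for reach and -1.15 for own-gene contacts in mOPC NPM against mESC NPM, both no longer called. The share on Myc DNA in mOPC 1FA against mESC 1FA was -0.366 over the 25-kb bin that holds Myc.

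With the replicate block the amount of Pvt1 in mESC NPM against mESC 1FA was -1.44 (adjusted p = 0.0510). The network genes called became 3 for mESC 2FA and 5 for mESC ActD4 (0 and 3 without the block), and the neighbours called 3 for mESC NPM (5 without). Apart from windows of the Pvt1 profile, the block changed no other call of Pvt1 or Myc. Over all transcripts it moved the calls for mESC 2FA from 3 to 521 in capture and from 18 to 341 in own-gene contacts, and the windows called for mESC 2FA from 10 to 16.

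Without a filter on low counts the network genes called were 1 for mESC 2FA, 8 for mESC ActD4 and 10 for mESC NPM (0, 3 and 6 with it), and the neighbours called for mESC 2FA were 2 (0 with it, and 1145 of 9962 transcripts at an unadjusted p under 0.05). Scaling by the total left 3 neighbours called for mESC NPM. Windows of 2 Mb gave 34 called, 8 of them downstream and higher in mOPC 1FA, and a minimum of 30 contacts gave 33, with 12 upstream and lower. Scaling by the total moved the median of all transcripts from -0.30 to -0.73 for mOPC 1FA against mESC 1FA, from -0.18 to 0.51 for mESC NPM and from 0.14 to 0.95 for mOPC NPM against 1FA, and from 0.25 to -0.18 between the NPM groups. For reach in mOPC 1FA against mESC 1FA the median turned from -0.23 to 0.47 with thinned libraries, 0.10 without the own gene and 0.08 with no minimum on each side, and 539 higher and 654 lower calls became 500 and 226 with thinning. With scaling by the total, calls of amount that were 3380 higher and 4622 lower in mOPC 1FA than in mESC 1FA became 2604 and 5621. In mESC NPM 1765 and 3353 became 4203 and 1326, in mOPC NPM 2930 and 2849 became 6157 and 757, and between the NPM groups 3457 and 2194 became 2680 and 3242.

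With each library left out in turn, the amount of Pvt1 ranged from -0.0314 to 0.163 for mESC 2FA (negative without mESC 1FA replicate 1), -0.54 to -0.32 for mESC ActD4, -1.79 to -1.63 for mOPC NPM against 1FA and 1.27 to 1.73 between the NPM groups. That of Myc ranged from 1.49 to 2.03 for mOPC NPM, and own-gene contacts of Pvt1 between the NPM groups from -1.50 to -0.86. Network genes called ranged from 2 to 7 for mOPC NPM against 1FA (6 with all, 2 and 3 without mOPC NPM replicates 1 and 2) and from 4 to 5 between the NPM groups (7 with all, 4 without mOPC NPM replicate 2). Neighbours ranged from 3 to 5 for mESC ActD4 (5 with all, 3 without mESC 1FA replicate 1 or 3 or mESC ActD4 replicate 2) and from 5 to 8 between the NPM groups (8 with all, 5 without mOPC NPM replicate 1).

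Counts of transcripts called over the whole table changed by more than 1.5 times in 35 of 126 cases, chiefly without a filter, with a minimum of 30 interactions or at other distances, and in 15 of 93 with 1 library left out. For mESC 2FA the latter ranged from 0 to 3 in amount and from 1 to 1258 in own-gene contacts (1258 without mESC 2FA replicate 1), and for the amount in mOPC NPM against 1FA from 2860 to 5970 (2860 and 3454 without mOPC NPM replicates 1 and 2). Between the NPM groups they were 2861 to 4769 in amount (2861 and 3063 without the same libraries), 18 to 55 in reach and 304 to 833 in own-gene contacts (18 and 304 without mESC NPM replicate 2). The planned count test was not run. The files hold no column of counts, and the amounts counted here from their lines were tested by limma alone. Exact tests of 1 group against another could not go below 0.1, or 0.333 for 2 against 2 libraries. In mESC NPM and mESC ActD4, with 846 to 1543 Pvt1 interactions and 0 to 7 of Myc, rare contacts may be missing from the lists.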
